A study of Mus musculus with 18 samples.

Results

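The C-type lectin receptors of myeloid cells are 10 genes, Clec1a, Clec4a1, Clec4a2, Clec4a3, Clec4d, Clec4e, Clec4n, Clec5a, Clec7a and Clec12a, out of 57010 genes in the count table. They were taken by name, as the rows whose Ensembl identifiers carry these symbols. The study sequenced RNA in bulk from brain cells that had been depleted with Ly6G beads and then selected with CD11b beads, which the labels call microglia/macrophages. All mice were WT males, and the 18 libraries formed 6 groups of 3 that the labels call biological replicates.

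The stroke bexarotene and stroke vehicle groups were mice aged 18 to 20 months that had an ischemic stroke by occlusion of the middle cerebral artery (MCAo). The aged bexarotene and aged vehicle groups were of the same age without stroke. The young bexarotene and young vehicle groups were mice aged 2 to 4 months without stroke. Bexarotene, a drug that activates the nuclear receptor RXR, was injected into the peritoneum at 5 mg/kg. Dosing began 24 hours after surgery and went on once a day for 2 days, and every vehicle group received 3% DMSO in saline. All samples carry the label of day 3, and the labels do not state whether mice without stroke had sham surgery. No young mice with stroke were in the design, so the stroke results hold for aged mice.

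Myeloid C-type lectin receptors are membrane proteins that bind sugars, lipids or products of dead cells through a lectin-like domain. The activating ones signal through the kinase Syk, either by a motif in their own tail (Clec7a) or through the adaptor chains FcRγ, encoded by Fcer1g, and DAP12, encoded by Tyrobp. Syk then acts through the adaptor Card9 on NF-kB and cytokine genes, whereas the inhibitory members recruit phosphatases through motifs in their tails.

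All 10 genes lie on chromosome 6. In the annotation used for names (GENCODE M21) their order was Clec5a, Clec4a1, Clec4a3, Clec4a2, Clec4n, Clec4d, Clec4e, Clec12a, Clec1a and Clec7a. Promoter windows of 300 bases, from 250 before to 50 after the annotated start, were taken from RefSeq on build GRCm38.p6 and matched 8 of the 10 genes by symbol, all but Clec1a and Clec4n. The windows of the 5 matched genes that rose with stroke in both arms are shown together with that of Clec5a, which fell in both. Each is written 5′ to 3′ on the strand of the gene, and capitals mark matches, on either strand, to the motifs described next. The windows are chr6:129472730-129473029 on the minus strand for Clec7a, chr6:123289822-123290121 on the minus strand for Clec4e, chr6:123261857-123262156 on the plus strand for Clec4d, chr6:122921598-122921897 on the plus strand for Clec4a1, chr6:129349994-129350293 on the plus strand for Clec12a and chr6:40585756-40586055 on the minus strand for Clec5a.
Clec7a: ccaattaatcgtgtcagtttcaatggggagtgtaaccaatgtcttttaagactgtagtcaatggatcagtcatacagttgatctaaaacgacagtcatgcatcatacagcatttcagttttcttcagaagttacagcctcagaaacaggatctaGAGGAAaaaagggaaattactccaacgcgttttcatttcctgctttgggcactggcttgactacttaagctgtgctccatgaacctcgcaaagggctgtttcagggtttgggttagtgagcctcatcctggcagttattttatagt
Clec4e: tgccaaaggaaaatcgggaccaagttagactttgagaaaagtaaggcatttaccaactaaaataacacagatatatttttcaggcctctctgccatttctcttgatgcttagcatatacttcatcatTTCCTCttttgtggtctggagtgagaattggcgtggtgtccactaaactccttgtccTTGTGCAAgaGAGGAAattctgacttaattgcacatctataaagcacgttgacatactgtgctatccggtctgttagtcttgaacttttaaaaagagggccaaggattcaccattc
Clec4d: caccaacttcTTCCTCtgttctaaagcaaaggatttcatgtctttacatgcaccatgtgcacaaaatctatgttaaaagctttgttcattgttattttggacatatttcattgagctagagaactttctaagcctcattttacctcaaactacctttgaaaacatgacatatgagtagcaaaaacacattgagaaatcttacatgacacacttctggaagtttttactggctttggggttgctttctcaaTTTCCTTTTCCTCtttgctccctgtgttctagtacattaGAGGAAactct
Clec4a1: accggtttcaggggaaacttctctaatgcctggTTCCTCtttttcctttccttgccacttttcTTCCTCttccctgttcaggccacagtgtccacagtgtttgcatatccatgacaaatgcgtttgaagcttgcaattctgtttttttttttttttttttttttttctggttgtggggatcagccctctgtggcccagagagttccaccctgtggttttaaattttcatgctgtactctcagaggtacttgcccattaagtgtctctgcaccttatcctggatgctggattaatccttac
Clec12a: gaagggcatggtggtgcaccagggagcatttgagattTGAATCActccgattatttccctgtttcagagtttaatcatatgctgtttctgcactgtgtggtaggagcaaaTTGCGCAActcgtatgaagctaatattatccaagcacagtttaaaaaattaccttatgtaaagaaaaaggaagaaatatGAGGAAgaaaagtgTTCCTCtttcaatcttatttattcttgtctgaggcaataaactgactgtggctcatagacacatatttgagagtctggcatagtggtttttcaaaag
Clec5a: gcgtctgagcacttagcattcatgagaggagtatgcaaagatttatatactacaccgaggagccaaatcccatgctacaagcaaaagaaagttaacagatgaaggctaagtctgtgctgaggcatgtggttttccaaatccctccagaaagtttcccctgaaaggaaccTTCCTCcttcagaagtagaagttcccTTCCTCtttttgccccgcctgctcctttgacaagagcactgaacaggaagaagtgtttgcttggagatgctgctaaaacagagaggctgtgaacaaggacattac

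Both strands were searched for 6 motifs. GAGGAA, the core of sites bound by PU.1, a transcription factor that myeloid cells depend on, was present in windows of 7 of the 8 genes, all but Clec4a2, and in 28.3% of all 32851 RefSeq windows. In Clec7a it lay at positions -96 to -91 (the first transcribed base is 1), and in Clec4e at -56 to -51 on the sense strand and at -123 to -118 on the antisense strand. TTGCNNAA, a C/EBP motif, was found in Clec4e and Clec12a and in 10.8% of all windows. TGANTCA, an AP-1 motif, was found in Clec12a and Clec4a2 and in 7.81% of all windows. An interferon-stimulated response element (GAAA, any 2 bases, GAAA) was found in Clec4d, where it overlaps a PU.1 core match on the antisense strand, and in 3.44% of all windows. An NF-kB motif (GGGA, any base, TTTCC) and AGGTCA, a motif of nuclear receptors that pair with RXR, were in none of these windows and in 0.411% and 16.3% of all windows. The 8 genes have 10 windows, and a gene was counted if any of its windows matched, so a share of genes is not a share of windows. The Clec4a3 window at chr6:122952265-122952564 held no match. These matches describe letters in a window and are not measurements of binding.

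**Figure D1:**
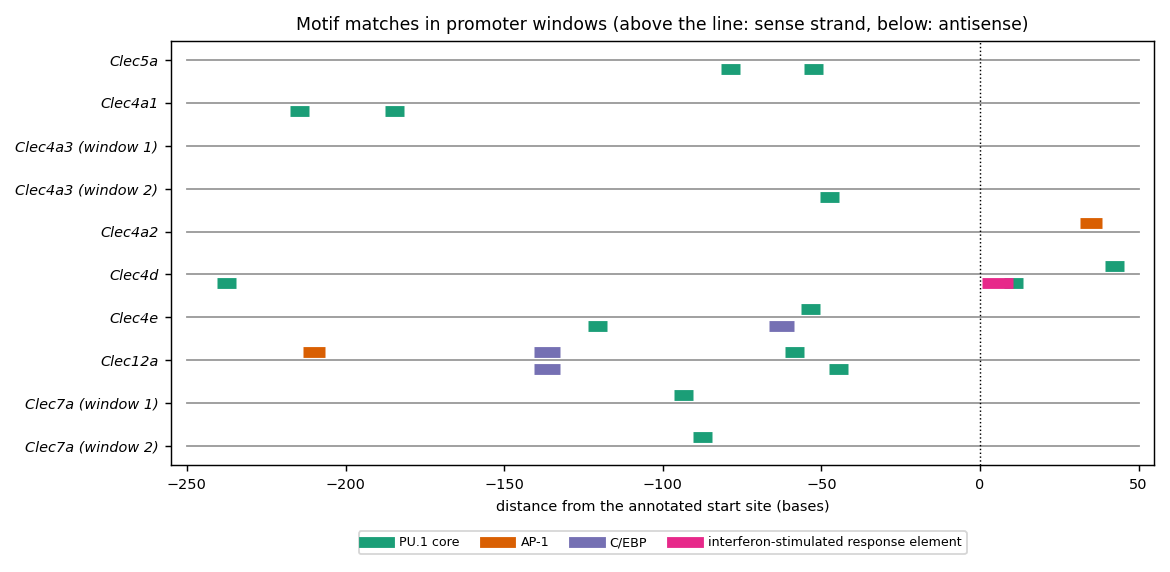
Motif matches in the RefSeq promoter windows of the C-type lectin receptor genes, by distance in bases from the annotated start site (x axis), with 1 line for each window, matches on the sense strand above the line and on the antisense strand below it. GAGGAA matches occur in windows of 7 of the 8 genes, and Clec4a2 has a TGANTCA match downstream of the start.

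Library totals were 16206144 to 29359943 counts in the stroke groups and 7582511 to 11852638 counts in the groups without stroke. All 10 genes passed the filter on low counts, which asked for about 0.944 CPM (counts scaled by library size) in enough libraries. Outside stroke 3 of them were near this level in young libraries: Clec1a was above it in 1 of 3 young vehicle libraries, Clec4d in 2 of 3 young bexarotene and 2 of 3 young vehicle libraries, and Clec4e in 1 of 3 young bexarotene and 2 of 3 young vehicle libraries. The 10 homeostatic microglia markers used to check the cell label summed to 21740 to 27420 CPM in the stroke groups and to 46370 to 66350 CPM in the groups without stroke, and no marker of that list was at 0 in any library. A change in such bulk samples does not tell fewer cells of a type from less RNA per cell.

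**Figure D2:**
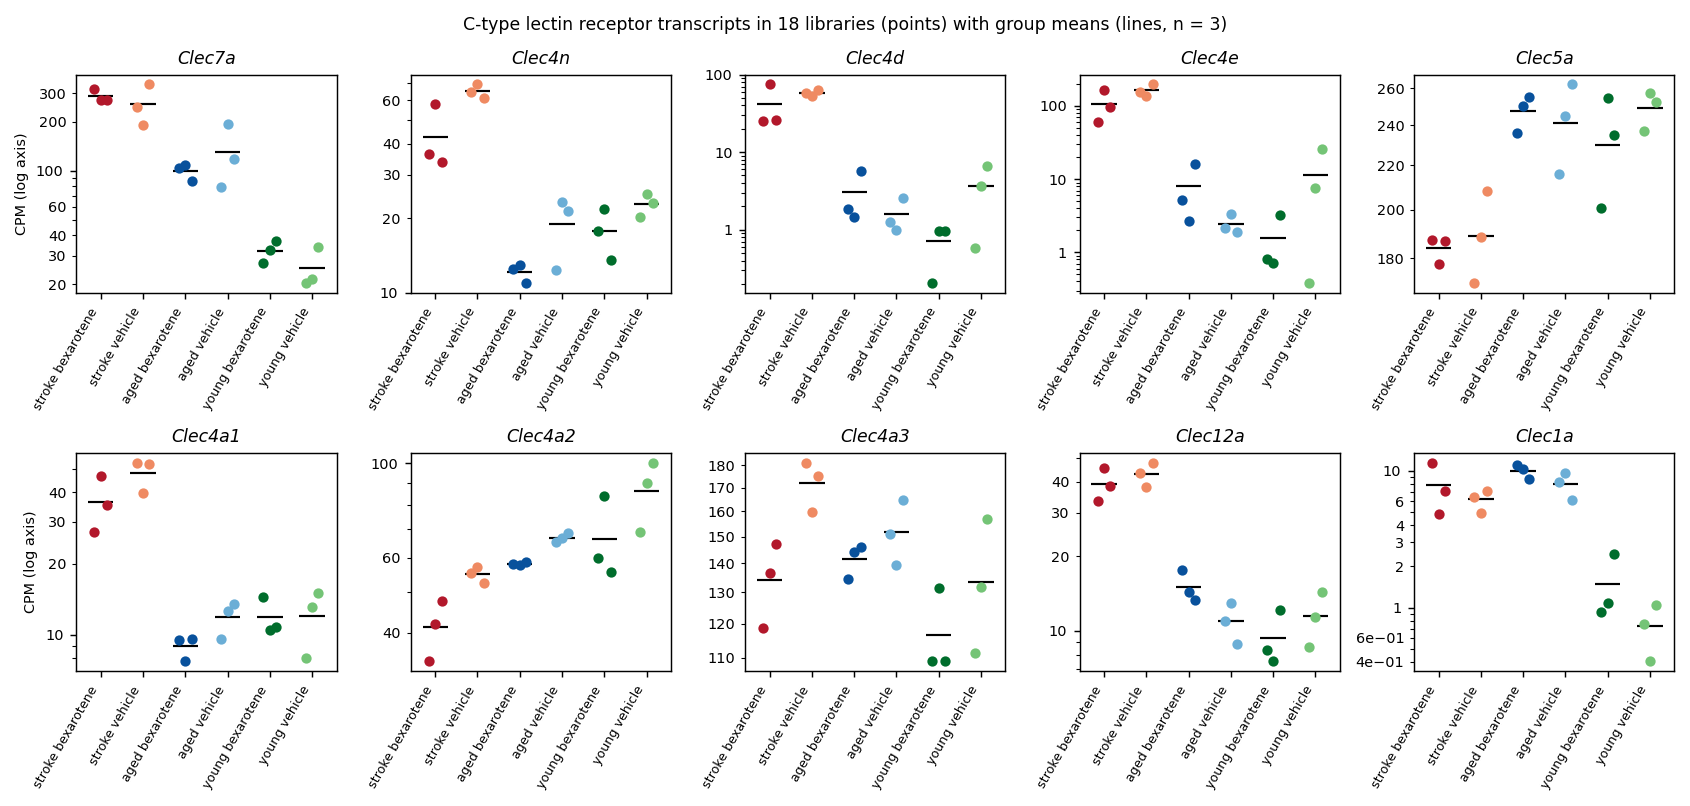
Level of each C-type lectin receptor transcript in CPM (y axis, log scale) in each of the 18 libraries (points), with group means of 3 libraries (lines). Clec4d, Clec4e, Clec4n, Clec4a1 and Clec12a are high in both stroke groups, and Clec7a and Clec1a are lowest in both young groups.

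Stroke was set against no stroke within each treatment to ask how aged cells differed on day 3. In vehicle-treated mice 6 of the 10 genes rose and 1 fell. Across all 15528 genes tested, 48.3% were called at an adjusted p under 0.05 (27.2% higher and 21.1% lower). The groups did not overlap for 7 of the 10 genes (70%), against 56.1% of all genes. In bexarotene-treated mice 6 rose and 2 fell, against 48% of all genes called (26.8% higher and 21.2% lower), and 8 of the 10 genes (80%) did not overlap, against 56.3% of all genes. The median log2 fold change of the 10 genes was 1.38 with vehicle and 1.46 with bexarotene, and over all genes it was 0.023 with vehicle and 0.0039 with bexarotene.

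Clec4e encodes Mincle, which binds a mycobacterial glycolipid and a protein released by dead cells and signals through FcRγ. It was at 157, 138 and 197 CPM in stroke vehicle libraries, against 2.17, 3.33 and 1.92 CPM in aged vehicle libraries. Every stroke library lay far above every aged library, and the fitted change was 6.05 ± 0.99 (log2 fold change ± SE, edgeR quasi-likelihood test, Benjamini-Hochberg adjusted p = 0.000222). With bexarotene it was at 59.7, 166 and 95.6 CPM after stroke, against 5.25, 2.72 and 16.2 CPM in aged mice. The groups were again separate, but the libraries within each differed severalfold. The change was 3.75 ± 0.85 (edgeR adjusted p = 0.00269), and it was not called when the libraries numbered 2 were left out of every group (2.88, adjusted p = 0.106). It was larger without aged bexarotene library 3 (4.77) or without the libraries numbered 3 (4.84).

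Clec4d encodes MCL (Dectin-3), a partner of Mincle that also uses FcRγ. It stood at 57.2, 53.0 and 63.0 CPM in stroke vehicle libraries, against 1.27, 0.978 and 2.59 CPM in aged vehicle libraries (5.16 ± 0.72, edgeR adjusted p = 4.14e-05). In bexarotene-treated mice it was at 25.3, 74.6 and 25.8 CPM after stroke, against 1.85, 1.44 and 5.78 CPM without (3.80 ± 0.66, edgeR adjusted p = 0.000289). As for Clec4e, library 2 was the highest of the stroke bexarotene libraries and library 3 the highest of the aged bexarotene libraries. The change was called throughout but ranged widely, at 3.10 without stroke bexarotene library 2, 4.66 without aged bexarotene library 3, 2.77 without the libraries numbered 2 and 4.92 without those numbered 3.

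Clec4n encodes Dectin-2, a receptor for fungal mannans that signals through FcRγ. It was at 64.5, 69.3 and 61.3 CPM in stroke vehicle libraries, against 12.4, 23.3 and 21.4 CPM in aged vehicle libraries (1.77 ± 0.22, edgeR adjusted p = 3.76e-06). It was at 36.5, 57.6 and 33.7 CPM in stroke bexarotene libraries, against 12.5, 12.9 and 10.95 CPM in aged bexarotene libraries (1.81 ± 0.23, edgeR adjusted p = 4.07e-06). No library of a stroke group came near the level of its aged group.

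Clec4a1, a gene of the dendritic cell immunoreceptor (DCIR) family, was at 53.3, 39.6 and 52.5 CPM in stroke vehicle libraries, against 9.60, 12.6 and 13.4 CPM in aged vehicle libraries (2.03 ± 0.23, edgeR adjusted p = 1.02e-06). With bexarotene it was at 27.2, 46.6 and 35.3 CPM after stroke, against 9.47, 7.73 and 9.63 CPM without (2.02 ± 0.23, edgeR adjusted p = 1.23e-06). The stroke libraries lay above all aged libraries in both arms.

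Clec12a encodes an inhibitory receptor (MICL) that recognises uric acid crystals of dying cells. It was at 43.4, 38.1 and 47.8 CPM in stroke vehicle libraries, against 10.96, 12.9 and 8.83 CPM in aged vehicle libraries (1.98 ± 0.21, edgeR adjusted p = 3.96e-07). It was at 33.4, 45.7 and 38.7 CPM in stroke bexarotene libraries, against 17.6, 14.4 and 13.3 CPM in aged bexarotene libraries (1.38 ± 0.20, edgeR adjusted p = 1.77e-05). The groups did not overlap in either arm, so an inhibitory receptor moved the same way as the FcRγ-coupled ones.

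Clec7a encodes Dectin-1, the receptor for beta-glucans of fungal walls. It was at 245, 191 and 339.7 CPM in stroke vehicle libraries, against 79.2, 195 and 117 CPM in aged vehicle libraries. One aged library exceeded the lowest stroke library, so these groups overlapped, and the change was 0.99 ± 0.28 (edgeR adjusted p = 0.00810). The call was lost without the libraries numbered 1 (adjusted p = 0.0934) or 3 (adjusted p = 0.133) and in a fit to the compared groups alone (adjusted p = 0.0638), and without the libraries numbered 2 the change was 1.58. With bexarotene Clec7a was at 319.8, 273 and 273 CPM after stroke, against 103, 108 and 86.8 CPM without. There the groups were well apart (1.54 ± 0.28, edgeR adjusted p = 0.000334).

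Clec5a encodes MDL-1, which pairs with DAP12, and it moved the other way. It was at 171, 189 and 208 CPM in stroke vehicle libraries, against 216, 245 and 262 CPM in aged vehicle libraries (-0.35 ± 0.10, edgeR adjusted p = 0.00691). It was at 187, 178 and 187 CPM in stroke bexarotene libraries, against 236, 250.4 and 255 CPM in aged bexarotene libraries (-0.43 ± 0.10, edgeR adjusted p = 0.00162). The groups did not overlap in either arm, though the change was small. The calls did not survive leaving out the libraries numbered 2 in either arm (adjusted p = 0.0767 with vehicle and 0.0567 with bexarotene) or numbered 3 with vehicle (0.0684).

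Clec4a2 encodes DCIR1, an inhibitory receptor. It was at 34.3, 42.1 and 47.4 CPM in stroke bexarotene libraries, against 58.1, 57.9 and 58.5 CPM in aged bexarotene libraries, and fell there (-0.50 ± 0.15, edgeR adjusted p = 0.0110). It was at 55.2, 57.0 and 52.4 CPM in stroke vehicle libraries, against 65.2, 66.8 and 68.8 CPM in aged vehicle libraries, which also did not overlap but was not called (-0.29 ± 0.15, edgeR adjusted p = 0.123). The bexarotene call was lost without stroke bexarotene library 1 (adjusted p = 0.0638) or without the libraries numbered 1 (0.0747) or 2 (0.0547). With vehicle the fall was called under upper quartile scaling (adjusted p = 0.0225) and in a fit to the compared groups alone (0.0253). The counts of Clec4a2 are uncertain because 6.69% of the 50-base windows of its transcripts also occur in other genes, mainly Clec4a4 and Clec4b1.

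Clec4a3, another DCIR family gene, and Clec1a were not called. Clec4a3 was at 181, 160 and 175 CPM in stroke vehicle libraries, against 151, 140 and 165 CPM in aged vehicle libraries (0.18 ± 0.12, edgeR adjusted p = 0.217), and the groups overlapped. Clec1a was at 6.49, 4.94 and 7.14 CPM in stroke vehicle libraries, against 8.33, 9.69 and 6.14 CPM in aged vehicle libraries (-0.38 ± 0.33, edgeR adjusted p = 0.372), also with overlap. With bexarotene the changes were -0.08 ± 0.12 for Clec4a3 and -0.35 ± 0.33 for Clec1a.

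**Figure D3:**
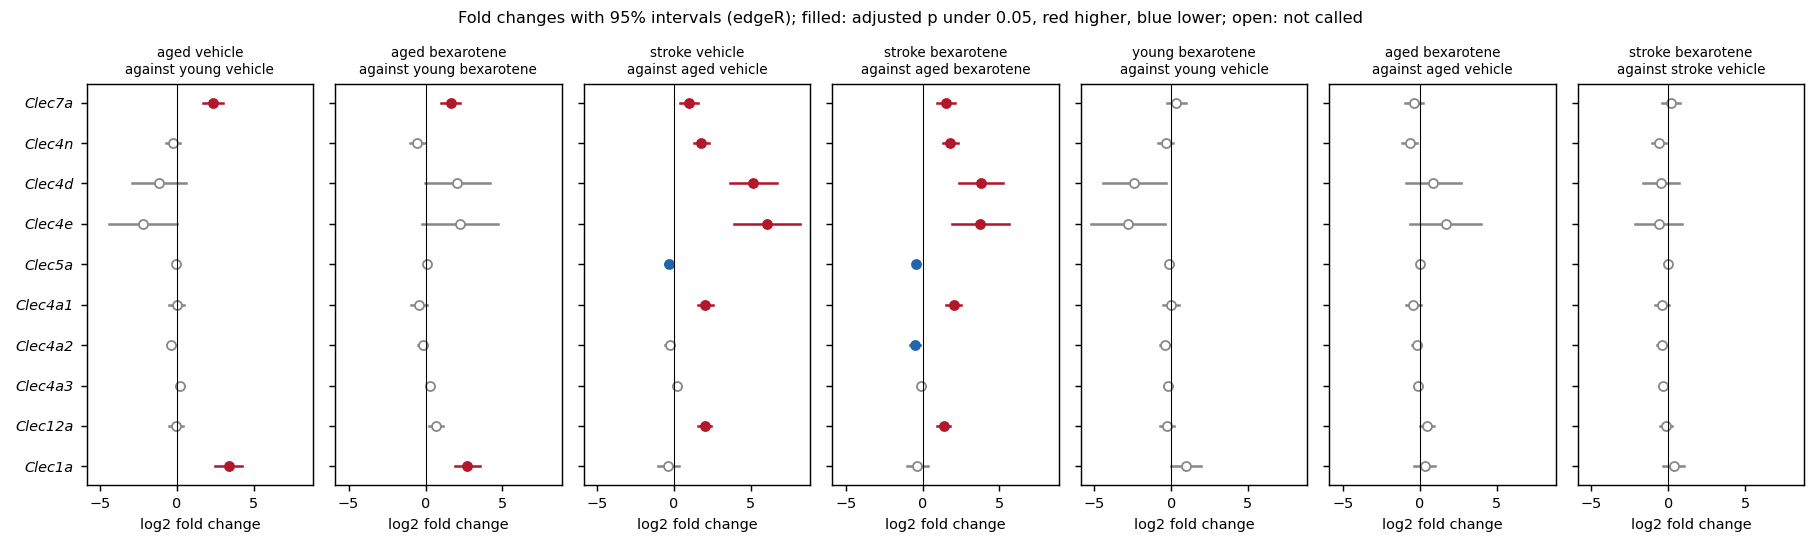
Log2 fold change (x axis) of each C-type lectin receptor gene in the comparisons of stroke with no stroke, aged with young and bexarotene with vehicle, with 95% intervals from edgeR, where filled points have an adjusted p under 0.05 (red higher, blue lower) and open points were not called. Stroke comparisons have 7 and 8 filled points, age comparisons 2 each (Clec1a and Clec7a) and bexarotene comparisons none.

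Markers of infiltrating monocytes and macrophages moved with the lectins that rose with stroke. The 10 markers summed to 3173 to 4940 CPM in stroke vehicle libraries, against 79.3 to 136 CPM in aged vehicle libraries, and 10 of 10 were called higher. With bexarotene they summed to 2816 to 5307 CPM after stroke, against 152 to 255 CPM without, and 9 of 10 were called higher. At the same time 8 of 10 homeostatic microglia markers were called lower in each arm. Neutrophil markers summed to 1080 to 2577 CPM in stroke vehicle libraries, against 679 to 944 CPM in aged vehicle libraries, with 5 of 12 called higher. With bexarotene they summed to 985.5 to 3674 CPM after stroke, against 1061 to 2066 CPM without, ranges that overlap, and 1 was called higher (Mmp9) and 1 lower (Camp). Within the stroke bexarotene group, library 2 held the most Clec4d and Clec4e, the largest monocyte and macrophage sum (5307 CPM) and the most Ccr2 (920 CPM, against 589 and 434 CPM in libraries 1 and 3). Of 10 border-associated macrophage markers 5 were called higher and 0 lower with vehicle, and 4 higher and 4 lower with bexarotene. Of 9 dendritic cell markers tested, 4 were called higher and 2 lower with vehicle, and 4 higher and 1 lower with bexarotene. Over all genes 27.2% were called higher and 21.1% lower with vehicle, and 26.8% and 21.2% with bexarotene. The part of cell composition in these changes was not tested.

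**Figure D4:**
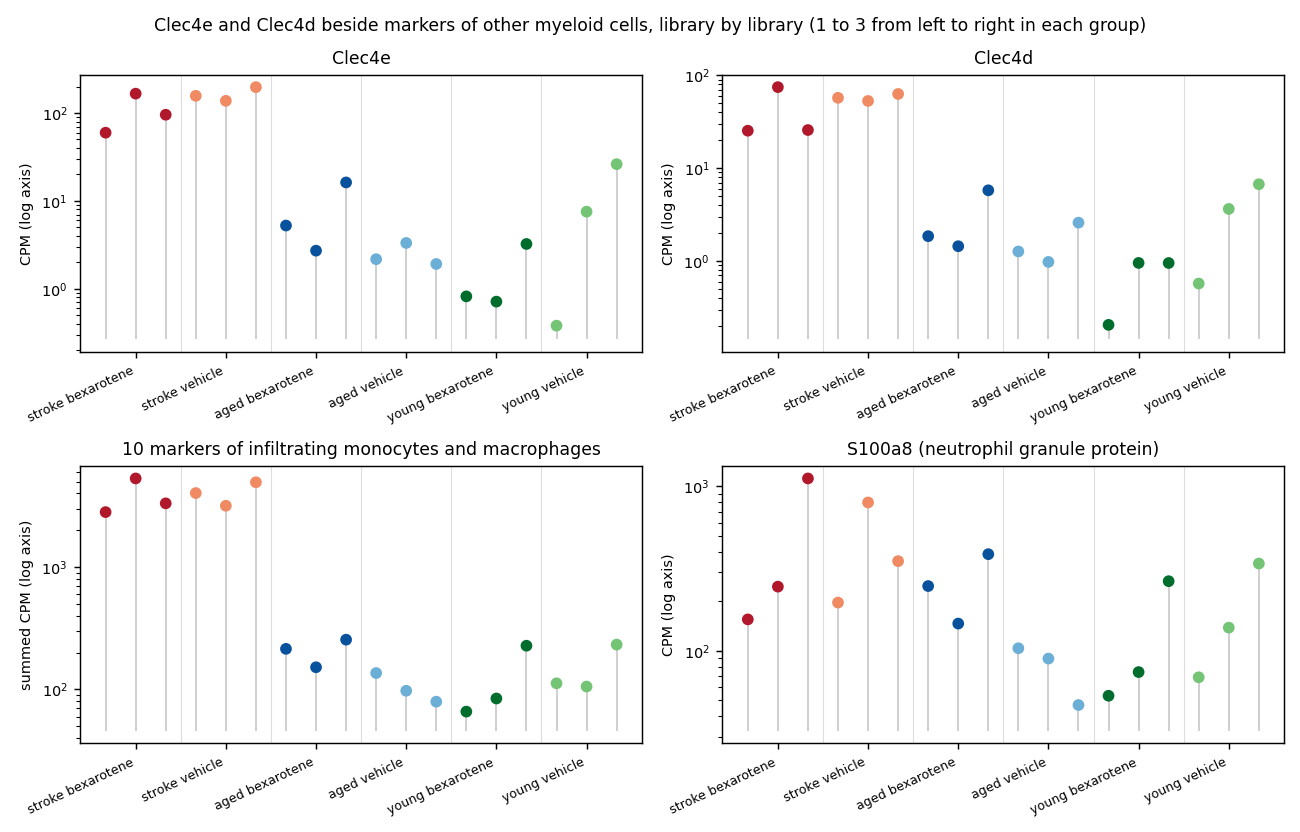
Clec4e and Clec4d beside markers of other myeloid cells in CPM (y axes, log scale), library by library, with libraries 1 to 3 from left to right within each group (x axis). Both lectins and the monocyte markers are high in all stroke libraries, and outside stroke Clec4e is highest in young vehicle library 3 and aged bexarotene library 3, which also have the most S100a8 of their groups.

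Aged cells were set against young cells without stroke. Of the 10 genes 2, Clec1a and Clec7a, rose in vehicle-treated mice and none fell, where 1.7% of all genes were called (1.26% higher). The same 2 rose in bexarotene-treated mice, where 0.96% of all genes were called (0.676% higher). The groups did not overlap for 3 of the 10 genes with vehicle, against 18.4% of all genes, and for 7 of the 10 with bexarotene, 5 of them higher in aged mice, against 16.8% of all genes. The median log2 fold change of the 10 genes was -0.06 with vehicle and 0.48 with bexarotene, against -0.014 and -0.0098 over all genes.

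Clec7a was at 79.2, 195 and 117 CPM in aged vehicle libraries, against 20.3, 21.4 and 33.8 CPM in young vehicle libraries. All 3 aged libraries were above all 3 young ones (2.36 ± 0.30, edgeR adjusted p = 0.000404), but a fit to these groups alone did not call it (adjusted p = 0.0696). It was at 103, 108 and 86.8 CPM in aged bexarotene libraries, against 27.0, 32.6 and 36.8 CPM in young bexarotene libraries, again with no overlap (1.63 ± 0.29, edgeR adjusted p = 0.0117). This call was lost without young bexarotene library 1 (adjusted p = 0.0864) or 2 (0.0530), without aged bexarotene library 2 (0.0544), and without the libraries numbered 1, 2 or 3 in every group (0.168, 0.0690 and 0.0644).

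Clec1a encodes MelLec, a receptor for a fungal melanin that in mice is known from endothelial cells. It was at 8.33, 9.69 and 6.14 CPM in aged vehicle libraries (92, 99 and 64 counts), against 0.763, 0.405 and 1.05 CPM in young vehicle libraries (8, 3 and 12 counts). The groups were far apart, and the change was 3.37 ± 0.42 (edgeR adjusted p = 0.000113). It was at 11.1, 10.3 and 8.72 CPM in aged bexarotene libraries, against 0.924, 1.07 and 2.48 CPM in young bexarotene libraries (2.72 ± 0.38, edgeR adjusted p = 0.000737). Young vehicle library 2 stood at the floor of 3 counts. Both calls were kept under every alternative run, and the change with bexarotene was 3.32 without young bexarotene library 3 and 3.41 without the libraries numbered 3. Clec1a had no difference called between stroke and aged mice.

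Markers of endothelium and pericytes summed to 45.3 to 52.5 CPM in aged vehicle libraries, against 42.3 to 47.7 CPM in young vehicle libraries, ranges that overlap. They summed to 35.5 to 45.6 CPM in aged bexarotene libraries, against 33.7 to 53.0 CPM in young bexarotene libraries. Pecam1 (29.3 CPM on average in aged vehicle libraries) and Kdr (12.1 CPM) held most of the sum, so it says little about the other markers. In the vehicle comparison 1 of the 6 markers tested, Flt1, was called higher and none lower (4.80 CPM in aged and 0.368 CPM in young libraries on average), though its groups overlapped, and it is named after its values were seen. In the bexarotene comparison, where Clec1a also rose, edgeR called 0 of the 6. Cldn5, another marker of that list, was at 0.543, 0 and 0.288 CPM in aged vehicle libraries, against 0, 0 and 0.262 CPM in young vehicle libraries. These values lie around the floor of 3 counts (0.264 to 0.396 CPM in these libraries) and are too low to compare. The part of endothelial RNA in the rise of Clec1a was not tested.

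The authors' deposited table of aged against young vehicle lists both genes, with log2 fold changes of 3.15 (adjusted p = 1.94e-09) for Clec1a and 2.07 (adjusted p = 1.78e-05) for Clec7a. The other 8 genes are not among the 451 genes of that deposited table, all of which have an adjusted p under 0.05.

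The remaining genes were not called with age by edgeR. Clec4e was at 2.17, 3.33 and 1.92 CPM in aged vehicle libraries, against 0.382, 7.55 and 26.2 CPM in young vehicle libraries, a spread that covers the aged values (-2.24 ± 1.02, adjusted p = 0.374). Clec4d was at 1.27, 0.978 and 2.59 CPM in aged vehicle libraries, against 0.573, 3.64 and 6.72 CPM in young vehicle libraries (-1.19 ± 0.82, edgeR adjusted p = 0.611). With bexarotene both age changes had the opposite sign and were not called. Clec4d was at 2.08 ± 0.99 (edgeR adjusted p = 0.455), without overlap but with 2, 8 and 10 counts in young bexarotene libraries. Clec4e was at 2.25 ± 1.15 (edgeR adjusted p = 0.495), with overlap. Young vehicle library 3, the highest for both genes, also had the most S100a8 of its group, a neutrophil transcript (338 CPM, against 69.0 and 138 CPM in libraries 1 and 2). Aged bexarotene library 3, the highest of its group for both, had 386 CPM of S100a8, against 247 and 146 CPM in libraries 1 and 2. The summed monocyte and macrophage markers were also highest in these libraries (232 CPM in young vehicle library 3 and 255 CPM in aged bexarotene library 3). Neutrophil markers and the lectins did not always go together. Young bexarotene library 3 had a neutrophil sum of 1810 CPM, against 1758 CPM in young vehicle library 3, with Clec4e at 3.24 CPM. Within its own group, though, young bexarotene library 3 was the highest for Clec4e and for the neutrophil sum (775 and 865 CPM in libraries 1 and 2). Stroke bexarotene library 3 had the largest neutrophil sum of the 18 libraries (3674 CPM), with Clec4d at 25.8 CPM. The part of these cells in the spread was not tested. Clec12a was at 17.6, 14.4 and 13.3 CPM in aged bexarotene libraries, against 8.32, 7.52 and 12.1 CPM in young bexarotene libraries, which did not overlap and was not called (0.69 ± 0.21, edgeR adjusted p = 0.171).

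None of the other 5 genes was called with age either. Clec5a was at 216, 245 and 262 CPM in aged vehicle libraries, against 237, 257 and 252 CPM in young vehicle libraries, and at 236, 250.4 and 255 CPM in aged bexarotene libraries, against 201, 254.5 and 235 CPM in young bexarotene libraries. Clec4a3 was at 151, 140 and 165 CPM in aged vehicle libraries, against 111, 132 and 157 CPM in young vehicle libraries, and at 134, 144 and 146 CPM in aged bexarotene libraries, against 109, 131 and 109 CPM in young bexarotene libraries. The Clec5a groups overlapped in both arms and the Clec4a3 groups only with vehicle, and the Clec4a3 difference with bexarotene was 0.28 ± 0.12 (edgeR adjusted p = 0.354).

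The inhibitory Clec4a2 was at 65.2, 66.8 and 68.8 CPM in aged vehicle libraries, against 68.8, 89.7 and 100.3 CPM in young vehicle libraries (-0.37 ± 0.15, edgeR adjusted p = 0.284). With bexarotene it was at 58.1, 57.9 and 58.5 CPM in aged libraries, against 60.1, 83.8 and 55.5 CPM in young libraries. The vehicle groups met at their edges without overlapping, and the bexarotene groups overlapped. Clec4n was at 12.5, 12.9 and 10.95 CPM in aged bexarotene libraries, against 17.8, 21.8 and 13.6 CPM in young bexarotene libraries (-0.54 ± 0.24, edgeR adjusted p = 0.372). Its young vehicle libraries stood at 20.2, 24.9 and 23.0 CPM and spanned part of the aged vehicle range. Clec4a1 was at 9.47, 7.73 and 9.63 CPM in aged bexarotene libraries, against 14.48, 10.5 and 10.8 CPM in young bexarotene libraries (-0.42 ± 0.24, edgeR adjusted p = 0.559), and its vehicle groups overlapped, with 8.02, 13.1 and 15.0 CPM in young vehicle libraries.

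Bexarotene was set against vehicle to ask whether RXR activation shifted these genes. None of the 10 was called by edgeR in stroke mice, where 0.058% of all genes were called, in aged mice (0.258% of all genes) or in young mice (0.509% of all genes). DESeq2 and limma also called none. With no filter on low counts edgeR called 2 in each comparison. These were Clec4n, lower in stroke (adjusted p = 0.01025) and in aged mice (0.0182), Clec4e, lower in stroke and young mice and higher in aged mice, and Clec4d, lower in young mice. Of these calls only Clec4n after stroke had groups that did not overlap. At an unadjusted p under 0.05 in the main edgeR fit, there were 988 of all 15528 genes in stroke mice, 1012 in aged mice and 1300 in young mice. Among them were Clec4a2, Clec4a3 and Clec4n in stroke mice, all lower. In aged mice they were Clec4n, lower, and Clec12a, higher, and in young mice Clec4a2, Clec4d and Clec4e, all lower. None of the 10 is in the 3 deposited tables of bexarotene against vehicle by the authors, which list 96 genes for stroke, 149 for aged and 197 for young mice.

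After stroke 3 of the 10 genes, all lower with bexarotene, did not overlap between groups, where 11.3% of all genes did not overlap. Clec4n was at 36.5, 57.6 and 33.7 CPM in stroke bexarotene libraries, against 64.5, 69.3 and 61.3 CPM in stroke vehicle libraries (-0.61, 95% interval -1.06 to -0.17, edgeR adjusted p = 0.523). Clec4a2 was at 34.3, 42.1 and 47.4 CPM in stroke bexarotene libraries, against 55.2, 57.0 and 52.4 CPM in stroke vehicle libraries (-0.41, interval -0.73 to -0.10, edgeR adjusted p = 0.573). Clec4a3 was at 119, 137 and 147 CPM in stroke bexarotene libraries, against 181, 160 and 175 CPM in stroke vehicle libraries (-0.36, interval -0.61 to -0.11, edgeR adjusted p = 0.473). In each of these genes every bexarotene library was below every vehicle library, and none of the differences passed the adjustment over all genes that passed the filter.

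The intervals of the other genes after stroke were wider or centred nearer to no change. Clec7a was at 0.16 (interval -0.42 to 0.74) and Clec5a at -0.04 (interval -0.25 to 0.17). Clec4e was at -0.62 (interval -2.16 to 0.93) and Clec4d at -0.47 (interval -1.61 to 0.67), which leave changes of more than 1 log2 unit downward possible. Over the 10 genes the median was -0.39 and 2 of 10 had a positive sign, beside a median of 0.0044 over all genes.

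Without stroke, in aged mice 2 of the 10 genes did not overlap, where 11.8% of all genes did not. Clec12a was at 17.6, 14.4 and 13.3 CPM in aged bexarotene libraries, against 10.96, 12.9 and 8.83 CPM in aged vehicle libraries (0.47, interval 0.02 to 0.91, edgeR adjusted p = 0.745). Clec4a2 was at 58.1, 57.9 and 58.5 CPM in aged bexarotene libraries, against 65.2, 66.8 and 68.8 CPM in aged vehicle libraries (-0.20, interval -0.52 to 0.11, edgeR adjusted p = 0.897). In young mice the groups overlapped for all 10 genes (0 of 10 without overlap), where 13.1% of all genes did not overlap. The estimates there ran from -2.81 for Clec4e and -2.38 for Clec4d to 0.97 for Clec1a, whose interval was -0.01 to 1.95. Clec4d stood at 2, 8 and 10 counts in the young bexarotene libraries, against 6, 27 and 77 counts in the young vehicle libraries, so little depth lies behind that estimate.

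Clec4e showed the widest spread of the bexarotene comparisons without stroke. It was at 5.25, 2.72 and 16.2 CPM in aged bexarotene libraries, against 2.17, 3.33 and 1.92 CPM in aged vehicle libraries (1.68, interval -0.60 to 3.97). It was at 0.821, 0.716 and 3.24 CPM in young bexarotene libraries, against 0.382, 7.55 and 26.2 CPM in young vehicle libraries (-2.81, interval -5.21 to -0.40). The difference between these effects, aged minus young, was 4.49 ± 1.54 and was not called (edgeR adjusted p = 1.00), and the same test called 0 of 15528 genes, with 456 at an unadjusted p under 0.05. The test of the bexarotene effect in stroke minus that in aged mice also called 0 genes, with 638 at an unadjusted p under 0.05.

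Per kilobase of exon, levels could be compared between genes. The highest level was that of Clec4a3, at 130 CPM per kilobase in stroke vehicle libraries and 114 CPM per kilobase in aged vehicle libraries. Clec7a followed, with 110 CPM per kilobase in stroke bexarotene libraries and 98.0 in stroke vehicle libraries, against 12.2 in young bexarotene and 9.54 in young vehicle libraries. Clec5a was at 47.9 CPM per kilobase in stroke bexarotene and 49.3 in stroke vehicle libraries, against 64.4 in aged bexarotene and 62.8 in aged vehicle libraries. The lowest levels per kilobase were those of Clec1a in the stroke and young groups (1.51 CPM per kilobase in stroke bexarotene and 0.143 in young vehicle libraries) and of Clec4e in the aged groups (1.62 with bexarotene and 0.498 with vehicle).

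**Figure D5:**
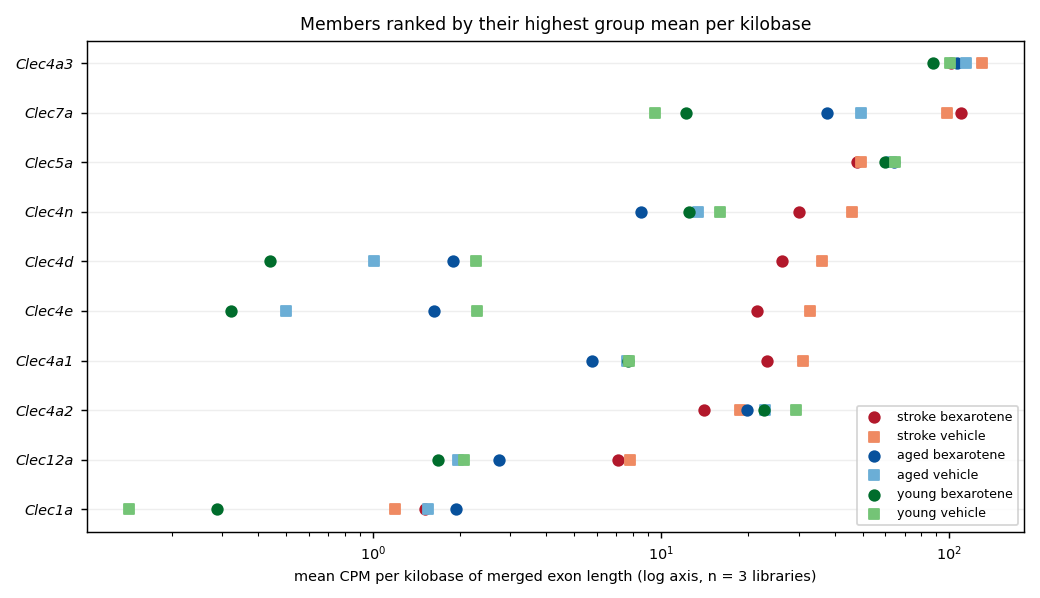
Mean level per kilobase of merged exon length (x axis, log scale, CPM per kilobase, 3 libraries per group) of each C-type lectin receptor gene (rows) in the 6 groups (colours). Clec4a3 and Clec5a stay within a narrow range over the groups, and Clec4d, Clec4e, Clec7a and Clec1a spread widely.

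The order of group means followed the same lines. For Clec7a the order ran from stroke bexarotene (289 ± 26.8 CPM, SD, n = 3) and stroke vehicle (259 ± 75.3 CPM) through aged vehicle (130 ± 58.9 CPM) and aged bexarotene (99.4 ± 11.2 CPM) to young bexarotene (32.1 ± 4.89 CPM) and young vehicle (25.2 ± 7.46 CPM). Neighbours in that order overlapped except aged bexarotene and young bexarotene. For Clec1a only stroke vehicle and young bexarotene did not overlap among neighbours. For Clec4d and Clec4e the order began with stroke vehicle (57.8 ± 5.03 and 164 ± 30.2 CPM) and stroke bexarotene (41.9 ± 28.3 and 107 ± 54.1 CPM), which overlapped with each other and with no other group. For Clec4n the first break was between stroke vehicle (65.0 ± 4.05 CPM) and stroke bexarotene (42.6 ± 13.1 CPM).

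A likeness of group means was then described, with no test. The genes whose centred group means lay nearest to those of a member were found among 10240 other genes, by the root mean square (RMS) difference over the 6 groups on the log2 scale. Nearest to Clec7a were Fam20c (RMS difference 0.131) and H2-Q6 (0.229). Nearest to Clec4e were Slfn4 (0.309) and Acod1 (0.345), nearest to Clec4d were Atp10a (0.239) and Vim (0.279), and nearest to Clec4n were Fas (0.113) and Sntb2 (0.164). For Clec4a1 they were Parp14 (0.106) and Slc39a14 (0.126), for Clec12a Tpt1-ps6 (0.0965) and Rab3d (0.118), and for Clec1a Gm15446 (0.317) and Ildr2 (0.322). For the flatter genes Clec5a, Clec4a3 and Clec4a2 the nearest were Dnm2 (0.0162) and Vps72 (0.0223), Ercc6l2 (0.0387) and Oaf (0.0441), and Zyg11b (0.0608) and Nckap5l (0.0638), in that order of genes. Among the members, the nearest pairs were Clec4a2 with Clec5a (0.205), Clec4a1 with Clec4n (0.225), Clec4a3 with Clec5a (0.290) and Clec4d with Clec4e (0.314).

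Genes that carry lectin signals inward were followed as a list of 19, all tested. With stroke 7 rose and 2 fell in vehicle-treated mice and 8 rose and 3 fell in bexarotene-treated mice. These are 47.4% and 57.9% of the list, beside 48.3% and 48% of all genes. The Src-family kinase Fgr rose with vehicle (174 CPM in stroke, against 12.2 CPM in aged mice, 3.84 ± 0.47), as did the exchange factor Vav3 (36.7 CPM in stroke, against 3.77 CPM in aged mice, 3.28 ± 0.48). The phosphatase Inpp5d, which dampens such signals, fell (636 CPM in stroke, against 988 CPM in aged mice, -0.64 ± 0.09). With bexarotene the 4 with the lowest p were Inpp5d (-0.69 ± 0.09), the adaptor Hcst (1.39 ± 0.20), Fgr (2.93 ± 0.45) and Vav3 (2.73 ± 0.47).

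The changes of the adaptors were smaller than those of Fgr and Vav3. Fcer1g rose with stroke in vehicle-treated mice (1404 CPM in stroke, against 1052 CPM in aged mice, 0.42 ± 0.12, edgeR adjusted p = 0.00592) and in bexarotene-treated mice (0.56 ± 0.12, adjusted p = 0.000591). Tyrobp rose with bexarotene (0.44 ± 0.14, edgeR adjusted p = 0.0130) and was at 0.27 ± 0.14 with vehicle (adjusted p = 0.107). Card9 fell with bexarotene (-0.69 ± 0.23, edgeR adjusted p = 0.0197) and was at -0.44 ± 0.23 with vehicle (adjusted p = 0.129). Syk was at -0.07 ± 0.10 with vehicle and -0.11 ± 0.10 with bexarotene and was not called. None of the 19 was called with age or with bexarotene by edgeR. At an unadjusted p under 0.05 there were 8 for age under vehicle and 7 under bexarotene, beside 2034 and 1769 of all 15528 genes. For bexarotene there were 0, 1 and 0 in young, aged and stroke mice, beside 1300, 1012 and 988 of all genes. DESeq2 called 1 with age under vehicle and 2 under bexarotene and limma none.

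Genes that Syk-coupled lectins are known to induce were a list of 15, of which 10 were tested. With stroke 7 rose and 2 fell in each arm (90% of those tested, beside 48.3% of all genes with vehicle and 48% with bexarotene). In vehicle-treated mice the cytokine Tnf rose (55.3 CPM in stroke, against 8.24 CPM in aged mice, 2.74 ± 0.26), as did the chemokines Ccl3 (1.80 ± 0.26) and Cxcl2 (5.53 ± 0.79), while Il6 fell (4.98 CPM in stroke, against 15.4 CPM in aged mice, -1.62 ± 0.28). In bexarotene-treated mice Tnf (2.87 ± 0.27), Ccl3 (2.12 ± 0.27) and Cxcl2 (3.84 ± 0.68) rose and Il6 fell (-2.60 ± 0.28). With age Ccl3 rose in both arms (1.82 ± 0.27 with vehicle and 1.39 ± 0.28 with bexarotene), and edgeR called no other gene of this list with age. DESeq2 called 2 with vehicle and 4 with bexarotene, all higher in aged mice, and limma 1 and 0. The authors' deposited table of aged against young vehicle also lists Cxcl2 (-0.56, adjusted p = 0.0475) and the transcription factor gene Egr2 (0.69, adjusted p = 0.0225), the last named after its values were seen. In the comparisons of bexarotene with vehicle edgeR and limma called none of the 10. DESeq2 called 4 in young mice (1 higher and 3 lower), beside 206 of all genes, and 0 in aged and stroke mice. At an unadjusted p under 0.05 edgeR had 7 in young, 6 in aged and 1 in stroke mice. Over all 15528 genes there were 1300, 1012 and 988. The authors' own tables of bexarotene against vehicle list Il6 as higher (0.87) and Ptgs2 as lower (-0.94) in young mice. In aged mice they list Ccl3 as lower (-0.52) and Cxcl2 as higher (1.30), and in stroke mice Il1b as lower (-0.85). Ptgs2 and Il1b are named after their values were seen.

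Of 39 other C-type lectin domain genes, 29 were tested. With stroke 12 rose and 4 fell in vehicle-treated mice, and 12 rose and 6 fell in bexarotene-treated mice. These are 55.2% and 62.1% of those tested, beside 48.3% and 48% of all genes. With vehicle the inhibitory receptor Cd72 (213 CPM in stroke, against 19.0 CPM in aged mice, 3.49 ± 0.22) and Cd93 (2.55 ± 0.27) rose. Cd209g (-2.35 ± 0.33) and Cd209f (-1.66 ± 0.23) fell. The same 4 genes had the lowest p with bexarotene (Cd72 4.01 ± 0.22, Cd209f -2.38 ± 0.24, Cd209g -2.82 ± 0.33 and Cd93 2.05 ± 0.26). With age Cd72 rose in both arms (1.45 ± 0.24 with vehicle and 1.18 ± 0.24 with bexarotene) and Clec10a, a galactose-binding lectin of macrophages, fell in both (-1.30 ± 0.23 and -1.28 ± 0.23). In all, edgeR called 2 higher and 3 lower with vehicle, and 1 higher and 3 lower with bexarotene. These are 17.2% and 13.8% of those tested, beside 1.7% and 0.96% of all genes. Limma called 1 with vehicle and 3 with bexarotene, Clec10a in both arms and Cd72 in neither. DESeq2 called 8 and 6. Markers of border-associated macrophages were lower as well. They summed to 785 to 934 CPM in aged vehicle libraries, against 1159 to 1373 CPM in young vehicle libraries. With bexarotene they summed to 876 to 1007 CPM in aged libraries, against 1328 to 1874 CPM in young libraries. In each arm 2 of 10 were called lower, beside 1.7% (vehicle) and 0.96% (bexarotene) of all genes called in either direction. No marker was called in both arms. The marker list and the 29 lectin genes share a gene, called lower with bexarotene. The part of these macrophages in the fall of Clec10a was not tested. In the comparisons of bexarotene with vehicle edgeR called none of the 29, with 3 in young, 4 in aged and 5 in stroke mice at an unadjusted p under 0.05, and DESeq2 and limma called none. The authors' deposited tables of bexarotene against vehicle list Cd209f as higher in aged mice (0.56, adjusted p = 0.000389) and Cd69, a lymphocyte activation marker named after its values were seen, as lower in stroke mice (-0.61, adjusted p = 0.0291).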

How the data were processed

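The authors deposited unnormalized counts of whole reads for the genes of 18 libraries, and 4 tables of their own comparisons with log2 fold changes, p-values and a mean signal (baseMean) that was not used. The submitters' processing notes name Trimmomatic (0.40), STAR (2.7.10a), GATK, R (4.4.2) and the build GRCm39. The labels and headers used here do not give the annotation, the strand setting or the tool behind the deposited tables, so overlapping or antisense genes could share reads. Some listed fold changes are smaller than their standard errors (Ptgs2 in young mice, -0.94 with an error of 1.38). The scale of the deposited fold changes may therefore differ from that of edgeR. Names and exon lengths came from GENCODE M21, which named 52029 of 57010 genes (52033 with the deposited tables), and genes without a name held 0.326% of counts.

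Counts were tested with edgeR 4.0.16 (limma 3.58.1, R 4.3.3). After filterByExpr 15528 genes remained, libraries were scaled by TMM (factors 0.937 to 1.05), and 1 quasi-likelihood model with 12 residual degrees of freedom was fitted to all 18 libraries. P-values were adjusted by Benjamini-Hochberg over all genes, and an adjusted p under 0.05 was called. CPM values are TMM-scaled, and errors of fold changes are standard errors. The script was tested on simulated data. Intervals cover 95%. A floor of 3 counts was 0.396 CPM in the shallowest library and covers counting error only. Replicates of a group differed by a chi-square per degree of freedom of 5.77 to 36.2, more than sampling noise. Alternatives were leaving out each library or each replicate number, a replicate block, RLE and upper quartile scaling, no filter, limma voom, DESeq2 1.42.0 and a fit to the compared groups alone.

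Same-numbered libraries deviated together in young bexarotene and young vehicle (correlations 0.259, 0.276 and 0.140) and in aged bexarotene and young bexarotene (0.109, 0.300 and 0.126), where each pair passed 0.1. The numbers come from the sample titles, and no source says what they share. The members and gene lists were chosen with earlier results of these data known. Every member is named. Of the other lists up to 4 called genes with the lowest p are named per comparison, with Fcer1g, Tyrobp, Syk and Card9 always, and the 2 genes nearest to each member. A gene that this rule names is not reported here.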

Additional observations from a re-analysis of the deposited data

How the results depend on the processing

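The replicate block, RLE scaling, upper quartile scaling, limma voom and DESeq2 left the number of members called in each comparison within 1.5 times, and the block changed no member's call. Over all genes the block called 20 with bexarotene in stroke mice, against 9 without it, and 14 of 18 libraries correlated best with their own number (27 of 45 pairs over 0.1, range -0.113 to 0.386).

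With no filter on low counts edgeR called 4 members with age under vehicle, 5 with age under bexarotene, 2 in each comparison of bexarotene with vehicle and 2 in each difference of bexarotene effects, and the cause was not tested. Clec4e in young mice then had an adjusted p of 6.72e-35, although its groups overlap, and up to 1.00 under the other alternatives. Fitted to the compared groups alone, 1 member was called with age under vehicle. Over all genes DESeq2 called 516, 345, 206, 92 and 53 for age under vehicle, age under bexarotene, and bexarotene in young, aged and stroke mice, against 264, 149, 79, 40 and 9 by edgeR. With no filter these were 677, 683, 457, 339 and 419, and with limma voom 154, 80, 54, 18 and 28. For the differences of bexarotene effects, aged minus young and stroke minus aged, DESeq2 called 3 and 1 genes, edgeR with no filter 138 and 256. Leaving out libraries gave 1 to 2 members called with age under bexarotene and 5 to 8 with stroke under bexarotene.

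Signs turned only for members that were not called, some of them away from no change at first (Clec7a -0.39 with bexarotene in aged mice and Clec1a 0.35 in stroke mice). For Clec4a1, aged against young under vehicle, log2 fold changes were 0.00075 (RLE), 0.0106 (upper quartile), 0.0089 (no filter), 0.0155 (voom) and 0.0013 (DESeq2). For Clec4a1 under bexarotene in young mice they were 0.0114 (replicate block) and 0.0280 (voom). For the bexarotene effect in stroke minus that in aged mice they were 0.0021 (RLE), 0.0016 (no filter) and 0.0041 (DESeq2) for Clec4a1, and -0.0078 (replicate block) and -0.0875 (voom) for Clec4n. Leaving out libraries moved the age change under vehicle between -0.251 and 0.183 (Clec4a1), -0.116 and 0.0241 (Clec5a) and -0.259 and 0.270 (Clec12a), and that of Clec4a2 under bexarotene between -0.310 and 0.0199. It moved the bexarotene effect between -0.410 and 0.264 for Clec4a1 in young mice, between -0.0399 and 0.101 for Clec5a and -0.680 and 0.0186 for Clec7a in aged mice, and between -0.0253 and 0.589 (Clec1a), -0.0989 and 0.0352 (Clec5a) and -0.0048 and 0.444 (Clec7a) in stroke mice. The aged minus young effect ran between -0.0497 and 0.384 (Clec4a2) and -0.0441 and 0.223 (Clec4a3), and the stroke minus aged effect between -0.343 and 0.279 (Clec1a), -0.468 and 0.442 (Clec4a1), -0.288 and 0.405 (Clec4n) and -0.136 and 0.0224 (Clec5a). Without TMM scaling the mean of Clec4a2 in aged bexarotene libraries was 59.5 CPM and that of Clec5a in stroke bexarotene libraries 177.5 CPM, each more than 1 SD from the scaled mean. The depth of the young libraries limits Clec1a, Clec4d and Clec4e, some of which stood at a few counts.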
